A study of Drosophila melanogaster with 7 samples.

Results

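The spliceosomal U snRNA genes of Drosophila melanogaster were examined in primary neuron cultures. Members were all genes of the count table whose FlyBase symbol starts with snRNA:U, and the rule found 29 of 17753 genes in 10 classes. The 7 libraries come from control cultures (w1118) that were kept 7 days in vitro after dissection of 3 nervous systems of third-instar larvae per culture. The label names primary neurons and no purification of a cell type, so cells other than neurons may be present. No treated or mutant culture was compared with them here, and all values below describe this single condition. The libraries are named CC_1 to CC_7, as in the count table, and their numbers were not matched to the numbered cultures of the sample labels. Because bulk RNA was sequenced, a different number of cells of a type and a different amount of RNA per cell cannot be told apart.

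U snRNAs are short nuclear RNAs without a poly(A) tail that assemble with Sm or Lsm proteins into the particles of the spliceosome, which removes introns from pre-mRNA. In the major spliceosome, U1 recognizes the 5′ splice site and U2 the branch point, and U4 delivers U6 to the U5-containing tri-snRNP before U6 takes over the 5′ splice site in the catalytic core. In the minor spliceosome, U11, U12, U4atac and U6atac take the corresponding roles on a rare class of introns, while U5 serves both machineries. U7 is not a splicing RNA but guides the 3′ end cleavage of replication-dependent histone mRNAs. In Drosophila as in other animals, U6 and U6atac are made by RNA polymerase III and the other classes by RNA polymerase II.

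The libraries held between 21178515 and 33891136 counts. Sampling noise was exceeded in all 21 comparisons of 2 libraries, where chi-square per degree of freedom was 18.7 or more. RNA of all 5 neuron markers was present, with summed levels of 1883 to 2219 counts per 1000000 library counts (CPM), against 70.8 to 113 CPM for 4 glial genes. Library CC_1 stood apart in genes of other tissues, since the adult photoreceptor genes ninaE, ninaC and trp summed to 652 CPM there and to 16.3 to 141 CPM in the other libraries, and 3 fat body genes to 559.9 CPM and 44.4 to 164 CPM. The fat body sum is almost only apolpp (43.4 to 558 CPM), since Lsp2 and Fbp1 were not detected and reached at most 1.95 and 1.26 CPM. The sources differ on the library kit: the sample labels describe total RNA depleted of ribosomal RNA. A figure legend of the paper for cultured control neurons also names total RNA, whereas the methods name an mRNA kit. This difference bears on RNAs without a poly(A) tail, and absolute levels of U snRNAs are therefore described only within these libraries.

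Of the 29 U snRNA genes, 23 (79.3%) had at least 10 counts in every library and are called detected, against 53.4% of all genes in the table. The 6 others were U2:38ABb, U4:25F, U6atac and the 3 copies of U6, all of which had at least 1 count in every library. Together the 29 genes took 1003 ± 101 CPM (SD, n = 7), with 890.1 CPM in the lowest library (CC_4), a median of 978.6 CPM and 1164 CPM in the highest (CC_6).

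The classes differed widely in level. Some classes have 1 gene and others several near-identical copies. The sources used here do not say how reads that match several copies were treated. Sums of classes with several copies, and their ratios to other classes, are uncertain for this reason. U11 alone took 44.9 ± 3.34% of all U snRNA counts, followed by the 5 copies of U1 with 18.0 ± 2.53%, the 6 copies of U2 with 14.6 ± 1.21%, the 3 copies of U4 with 7.50 ± 0.98%, U12 with 7.00 ± 1.11% and the 7 copies of U5 with 5.69 ± 1.42% (SD, n = 7). U4atac held 1.83 ± 0.40%, the 3 copies of U6 held 0.23 ± 0.07%, U7 held 0.19 ± 0.08% and U6atac held 0.05 ± 0.04%. The 4 classes of the minor spliceosome thus held 53.8 ± 3.01% of the counts and the 5 classes of the major spliceosome 46.0 ± 3.05%. The ratio of minor to major counts ranged from 0.95 in CC_3 to 1.43 in CC_1, so the order of these sums was not the same in every library. Per kilobase of annotated length the order turned: the major classes then stood above the minor ones in 7 of 7 libraries, by 1.18 to 1.73 times.

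Since longer RNAs give more fragments, levels of different classes were compared as CPM per kilobase (kb) of annotated length. On this scale U11 (275 bases) had 1640 ± 240.4 CPM per kb, all U1 copies together (164 bases each) 1090 ± 107 CPM per kb, U2 763 ± 105, U4 526 ± 80.0, U5 465 ± 147, U12 294 ± 53.1, U4atac 116 ± 33.6, U7 27.2 ± 11.9, U6 21.9 ± 6.37 and U6atac 5.54 ± 3.46 CPM per kb (SD, n = 7). Over the libraries, the ranges of U1 and U2 overlapped, as did those of U2 with U4 and with U5, U4 with U5, U5 with U12, and U6 with U7. Within a library, U1 was above U2, and U2 above U4 and U5, in 7 of 7 libraries, whereas U4 was above U5 in 5, U5 above U12 in 6 and U7 above U6 in 4. The level of U11 per kb was above that of all U1 copies in each library, by 1.18 to 2.30 times, and above that of U12 by 4.62 to 8.12 times. By contrast, U12 stood at 0.20 to 0.33 times the level of U1. The ratios to U1 carry the limit given above for sums over copies. Shorter classes tended to have lower levels, though summed U1 (164 bases) was above U2 (191 to 192 bases) and U12 (238 bases). The sums of U4 (142 to 148 bases) and U5 (110 to 131 bases) were likewise above U4atac (160 bases). Across the 10 classes, annotated length and CPM per kb had a Spearman correlation of 0.77 as a sum over copies. As a mean per copy it was 0.90. Across the 29 single genes it was lower, at 0.46. This relation is a description of 10 RNAs counted in the same libraries. The 3 shortest classes, U7 (71 bases), U6atac (97 bases) and U6 (107 bases), were also the lowest. The part of length in these levels was not tested.

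**Figure D1:**
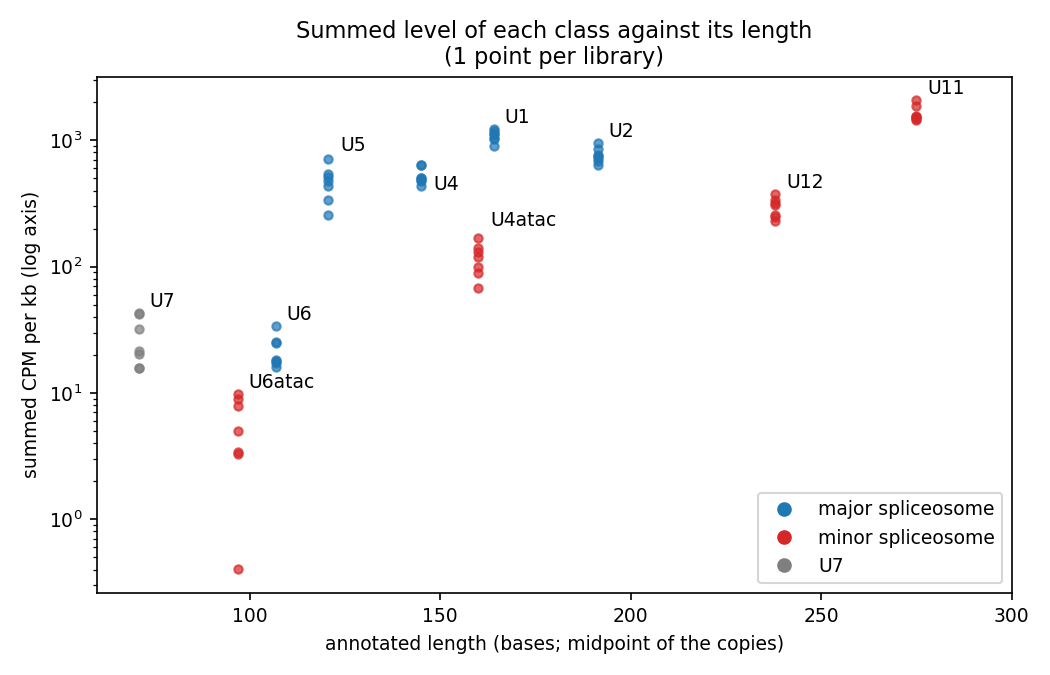
Summed level of each U snRNA class in CPM per kb (log axis) against annotated length in bases, with 1 point per library. The lowest levels belong to U6atac, U6 and U7, the shortest classes, and U11, the longest at 275 bases, has the highest level in every library.

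For the copies of 1 class, levels were compared within each library, which cancels depth. Copies of a class are near-identical, and the sources used here do not say how reads that match several of them were treated, so the division of counts between copies is uncertain. With this limit, 36 of 49 pairs of copies differed (exact sign-flip permutation test over the 7 libraries, two-sided, adjusted p = 0.0213 for each, Benjamini-Hochberg adjustment over 49 pairs). The unadjusted p of these pairs was 0.0156, the smallest that 7 libraries allow, so each of them showed the same order in 7 of 7 libraries. A pair entered the test when at least 1 of its copies was detected, and 7 of the 36 pairs set a detected copy against U2:38ABb or U4:25F, which were not detected, so that the choice of pairs favoured their direction. Among the 42 pairs with both copies detected, 29 differed: 8 of 10 in U1, 9 of 10 in U2, the 1 pair of U4 and 11 of 21 in U5. No pair of U6 copies entered this test, since none of the 3 reached 10 counts in every library.

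**Figure D2:**
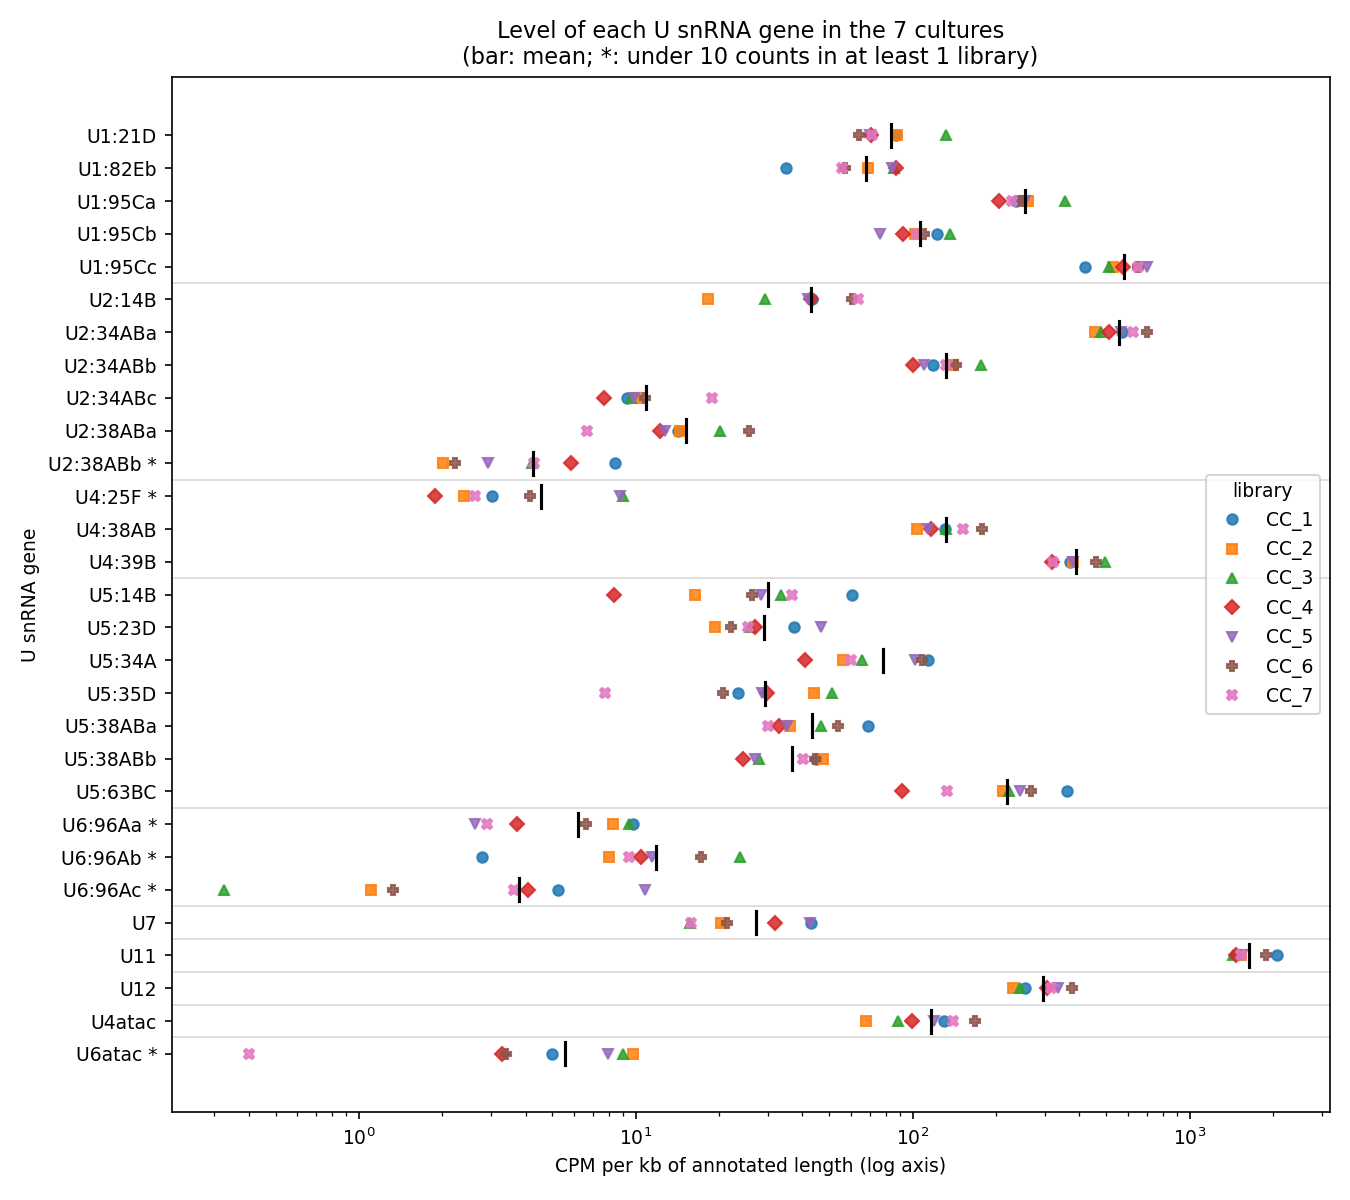
Level of each of the 29 U snRNA genes in CPM per kb (log axis), with a symbol per library, a bar at the mean and an asterisk for genes under 10 counts in at least 1 library. U11 lies highest, and in U1, U2, U4 and U5 the leading copy (U1:95Cc, U2:34ABa, U4:39B, U5:63BC) lies right of the other copies of its class.

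U1, which pairs with the 5′ splice site at the start of spliceosome assembly, has 5 annotated copies of 164 bases, and all were detected. The highest was U1:95Cc, with 68.9 CPM in the lowest library, a median of 94.7 CPM and 115.1 CPM in the highest. It held 52.9 ± 6.73% (SD, n = 7) of the U1 counts and led in 7 of 7 libraries. Next came U1:95Ca, from 33.5 to 58.1 CPM with a median of 40.3 CPM, which was 2.26-fold lower (log2 difference 1.18 ± 0.39). U1:95Cb had 17.4 ± 3.18 CPM, U1:21D 13.7 ± 3.82 CPM and U1:82Eb 11.1 ± 3.23 CPM (SD, n = 7). U1:95Cb was above U1:21D in 7 of 7 libraries, but by only 1.29-fold on average. U1:82Eb was not distinguished from U1:21D, which was higher in 5 of 7 libraries (adjusted p = 0.205, exact permutation), nor from U1:95Cb, which was higher in 6 of 7 (adjusted p = 0.0604, exact permutation). The latter pair passed without CC_5, at a log2 difference of -0.83 for U1:82Eb over U1:95Cb against -0.69 with all libraries. CC_5 was the only library with U1:82Eb above U1:95Cb, so this pass followed from the omission and adds no support. The sum over the copies, 179 ± 17.5 CPM, varied less between libraries (coefficient of variation 9.80%) than any single copy (17.1 to 29.2%).

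The division of U1 among its copies was not the same in all libraries. U1:95Cc held 41.9 to 50.4% of the class in CC_1, CC_2 and CC_3 and 55.9 to 59.1% in the other 4 libraries, and these ranges did not overlap. In the same 3 libraries U1:95Ca held 24.9 to 29.1% and U1:21D 8.37 to 10.8%, above the 19.8 to 21.8% and 5.65 to 6.84% of the others. U1:82Eb did not follow this split, with its lowest share, 3.86%, in CC_1 and its highest, 8.46%, in CC_4. The summed level of the 4 glial genes was also higher in CC_1 to CC_3 (93.4 to 113 CPM) than in the others (70.8 to 87.4 CPM). The same held for 3 fat body genes (140 to 559.9 against 44.4 to 97.7 CPM) and 4 hemocyte genes (32.8 to 63.5 against 27.7 to 31.6 CPM). Of these, only apolpp among the fat body genes and Hml and Pxn among the hemocyte genes were detected. The summed Lsm ring, U4/U6 and U5 particle, and transcription and 3′ processing lists described below were instead lower in CC_1 to CC_3, without overlap. The sums of the neuron, dividing cell, muscle and photoreceptor genes, and of the other protein lists, overlapped between the 2 sets of libraries. How many of all genes divide this way was not counted. The part of any of these genes in the result was not tested. The labels name no batch, and the split was seen in the values, so it was not tested.

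**Figure D3:**
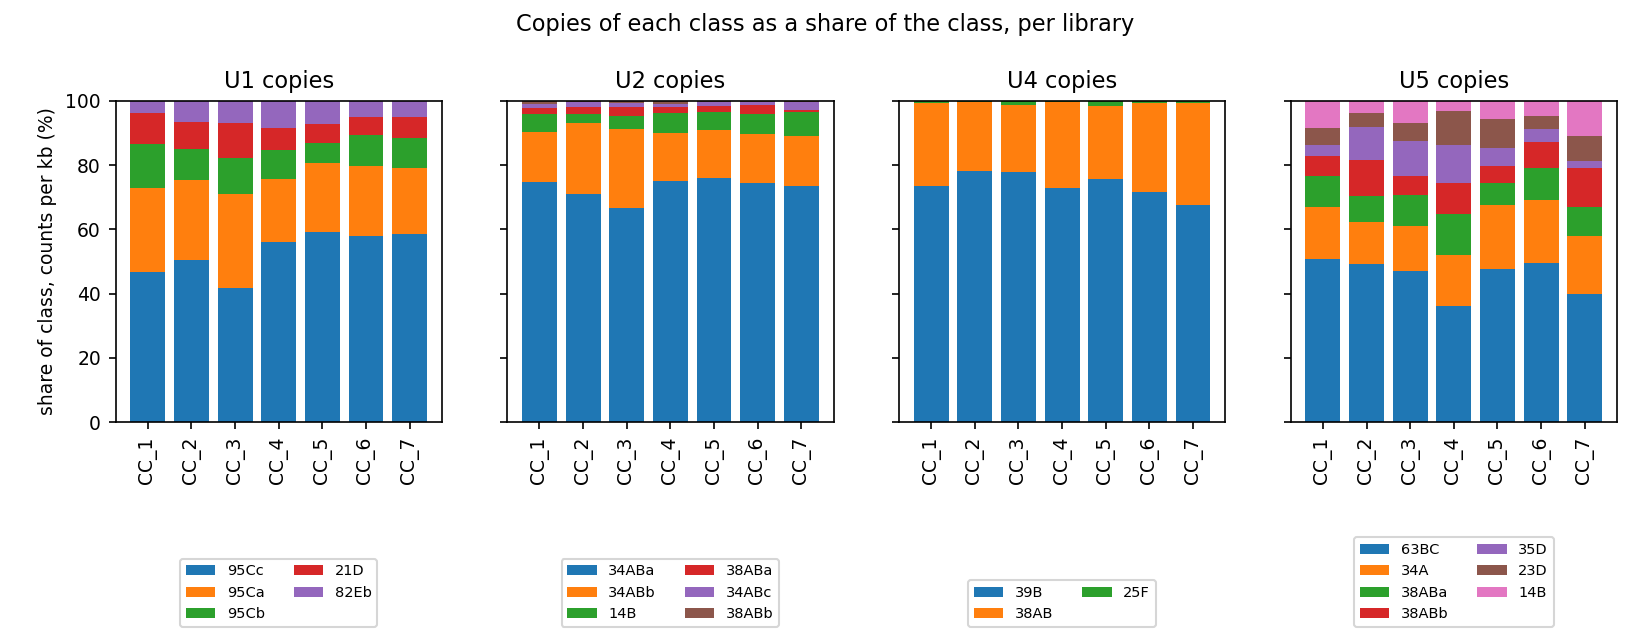
Share of each class held by each copy, in percent of counts per kb, as stacked bars per library for U1, U2, U4 and U5. The leading copy holds 41.9 to 59.1% of U1, 66.5 to 76.1% of U2, 67.4 to 78.1% of U4 and 36.0 to 50.8% of U5.

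U2, which pairs with the branch point and stays in the active spliceosome, has 6 annotated copies, of which 5 were detected. U2:34ABa dominated, with 87.2 CPM in the lowest library, a median of 109 CPM, a highest value of 135 CPM and 73.1 ± 3.28% (SD, n = 7) of the class per kb. U2:34ABb followed at 19.2 to 34.02 CPM with a median of 25.3 CPM, 4.26-fold lower (log2 difference 2.09 ± 0.37). U2:14B had 3.51 to 12.2 CPM, U2:38ABa 1.28 to 4.91 CPM and U2:34ABc 1.47 to 3.62 CPM. The last copy, U2:38ABb, had between 9 and 43 counts per library and 0.81 ± 0.43 CPM. U2:34ABa exceeded U2:38ABb 141-fold on average. Among the 10 pairs of detected U2 copies, the order was unresolved for U2:34ABc and U2:38ABa, of which the latter was higher in 6 of 7 libraries by 1.34-fold on average (adjusted p = 0.272, exact permutation). Library CC_7 had both the highest value of U2:34ABc and the lowest of U2:38ABa. Without CC_7 the pair passed, at a log2 difference of -0.74 for U2:34ABc over U2:38ABa against -0.42 with it. CC_7 was the only library with U2:34ABc higher, so this pass followed from the omission and adds no support.

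U2:34ABb was highest in CC_3 (34.02 CPM), where it held 24.7% of U2 while U2:34ABa held 66.5%, its lowest share. In CC_2 the shares were 21.9 and 71.1%. In the other 5 libraries U2:34ABb held 14.7 to 15.6% and U2:34ABa 73.6 to 76.1%. U2:14B was lowest in these same 2 libraries, at 3.51 CPM in CC_2 and 5.62 CPM in CC_3, against 8.06 to 12.2 CPM elsewhere.

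U4 holds U6 in an inactive state by base pairing and leaves when the spliceosome is activated. Of its 3 copies, U4:39B had 45.5 to 70.7 CPM (median 54.1 CPM) and U4:38AB 14.8 to 25.3 CPM (median 18.5 CPM). U4:39B was higher in every library, 2.94-fold on average (log2 difference per kb 1.56 ± 0.30), and held 73.8 ± 3.75% of the class. The third copy, U4:25F, had 7 to 38 counts per library and 0.67 ± 0.45 CPM, 97.1-fold below U4:39B per kb on average. The annotation places an exon of lncRNA:CR44794, on the opposite strand, over 92.6% of U4:25F. Likewise, an exon of asRNA:CR45330 covers 100% of U2:34ABc. These were the only members under an exon of another gene, and the overlapping RNAs had 0.06 ± 0.12 and 0.07 ± 0.13 CPM. As no source used here gives the strand setting of the counting, reads of such partners cannot be told apart, and both members are uncertain.

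U6, the catalytic snRNA that pairs with U4 before activation, was counted far less than U4. Its 3 copies lie in tandem on the plus strand of chromosome 3R, with gaps of 497 and 416 bases. U6:96Aa had 8 to 30 counts per library, U6:96Ab 8 to 73 and U6:96Ac 1 to 33. The sum was 2.34 ± 0.68 CPM, with 14173 counts of U4 against 443 of U6 over the 7 libraries, a ratio of 32.0, and 25.2 to 39.7 within libraries. The leading copy was U6:96Ab in 5 of 7 libraries and U6:96Aa in CC_1 and CC_2. When the pairs of U6 copies were tested without a minimum count, none of the 3 passed, and the lowest adjusted p was 0.0625 (exact permutation) for U6:96Ab above U6:96Ac in 6 of 7 libraries. Without CC_1, where U6:96Ab had 8 counts and U6:96Ac 15, U6:96Ab reached the minimum count and was above U6:96Ac in 6 of 6 libraries (log2 difference 2.43 ± 1.97, adjusted p = 0.0431, exact permutation). CC_1 was the only library of opposite order, so its omission both admitted the pair and fixed this result, which adds no support. In the minor spliceosome, U4atac had 3421 counts over all libraries and its partner U6atac 108, a ratio of 31.7, but the ratio within libraries ranged from 11.5 to 577.

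U5 aligns the exon ends for ligation and belongs to both spliceosomes. All 7 copies were detected, at annotated lengths of 110 to 131 bases. U5:63BC was highest, with 11.3 CPM in the lowest library (CC_4), a median of 27.5 CPM and 44.3 CPM in the highest (CC_1), and it held 45.8 ± 5.54% of the class per kb. U5:34A followed at 5.17 to 14.4 CPM, a 2.76-fold lower level per kb (log2 difference 1.46 ± 0.31). Each of the other 5 copies lay below U5:34A in 7 of 7 libraries. These 5 (U5:14B, U5:23D, U5:35D, U5:38ABa and U5:38ABb) had means of 3.29 to 5.51 CPM, and none of the 10 pairs among them passed the test, with adjusted p from 0.0604 to 1 (exact permutation). This does not show that they have 1 level. With a library left out, 2 pairs passed: U5:14B over U5:38ABa without CC_7 (log2 difference -0.85, against -0.69 with all) and U5:23D over U5:38ABa without CC_5 (-0.74, against -0.57). In both, the omitted library was the only one of opposite order, so the pass followed from the omission and adds no support. U5:14B over U5:38ABa also passed without division by length, at -0.89. The ratio of U5:14B to U5:35D, for example, averaged 0.01 on the log2 scale but ranged from -1.81 to 2.23 between libraries.

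U5 was the most variable major class with detected copies. Its sum had a coefficient of variation of 31.4%, against 9.80% for U1, 13.7% for U2 and 15.2% for U4. Summed U5 was lowest in CC_4 at 31.9 CPM and CC_7 at 41.3 CPM, and highest in CC_1 at 87.6 CPM, while the other 4 libraries had 53.8 to 67.5 CPM. U5:63BC, U5:34A and U5:14B were each highest in CC_1 and lowest in CC_4. U5:35D moved otherwise, with 0.97 CPM in CC_7 and 6.43 CPM in CC_3. CC_1 is the library with the high photoreceptor and fat body sums, and CC_4 had 19.1 and 66.4 CPM for the same lists. CC_6 had similarly low sums, 23.6 and 57.7 CPM, with the second highest U5 level (67.5 CPM), and CC_7 was lowest on both lists. The part of these genes in the result was not tested, and the mean of U5 without CC_1 was 52.8 CPM against 57.8 CPM with it.

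U7, at 71 bases the shortest member, had 29 to 86 counts per library and 1.93 ± 0.84 CPM (SD, n = 7). Values of CC_1 and CC_5 were highest, at 3.05 and 3.01 CPM, and those of CC_3 and CC_7 lowest, at 1.12 and 1.13 CPM. The mRNAs that U7 helps to process, encoded by the replication-dependent histone genes, summed to 6.79 ± 0.50 CPM over 111 genes, of which 1 was detected. These genes are also copies of a few types, and the treatment of reads that match several copies is not given. The sum is therefore uncertain and does not show that these mRNAs were scarce. Of the proteins listed with U7, Lsm10 and Lsm11, which replace 2 Sm proteins in the U7 ring, were not detected (0.86 ± 0.45 and 1.17 ± 0.49 CPM). Slbp, which binds the stem-loop of histone mRNA and is not part of that ring, had 39.5 ± 3.29 CPM.

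The minor spliceosome is represented by 1 gene per class. U11, the counterpart of U1, had 395 CPM in the lowest library, a median of 423 CPM and 569.6 CPM in the highest. It ranked 316 in mean CPM among 9476 detected genes, the highest of any U snRNA. CC_1 (569.6 CPM) and CC_6 (518 CPM) were high, and the other 5 libraries lay close together between 395 and 425 CPM. U12, the counterpart of U2, had 54.8 to 89.3 CPM with a median of 72.5 CPM. Its 3 lowest values were those of CC_1, CC_2 and CC_3 (54.8 to 60.7 CPM), below the 72.5 to 89.3 CPM of the others. This was the same division of libraries as for the share of U1:95Cc. U11 and U12, which enter the minor spliceosome as 1 particle, were not found to vary together (Pearson's r = 0.15, exact permutation p = 0.735; Spearman's rho = 0.36, p = 0.444). Leaving out CC_1 and CC_6, whose U11 values lay farthest from the median, gave r = 0.35. Leaving out CC_1 alone gave r = 0.71 and CC_6 alone r = -0.23, so the value depended on single libraries. U4atac had 10.9 to 26.8 CPM with a median of 19.1 CPM. U6atac had between 1 count, in CC_7, and 32 counts, in CC_2.

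The genes are grouped in the genome (assembly BDGP6.54). The largest group spans 5807 bases on chromosome 2L and holds U4:38AB (19810734 to 19810875), U5:38ABa, U2:38ABb, U2:38ABa and U5:38ABb (19816414 to 19816540), in this order. All 5 lie within 1 intron of sick, an actin regulator gene on the plus strand, whose exons give 1176 ± 110 CPM. Despite the shared intron, levels per kb were 132 ± 25.5 for U4:38AB, 43.4 ± 14.1 for U5:38ABa, 36.5 ± 9.78 for U5:38ABb, 15.2 ± 6.08 for U2:38ABa and 4.27 ± 2.25 for U2:38ABb (SD, n = 7). U2:38ABb, on the strand of sick, was the lowest of the 5, and U4:38AB, on the same strand, the highest.

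**Figure D4:**
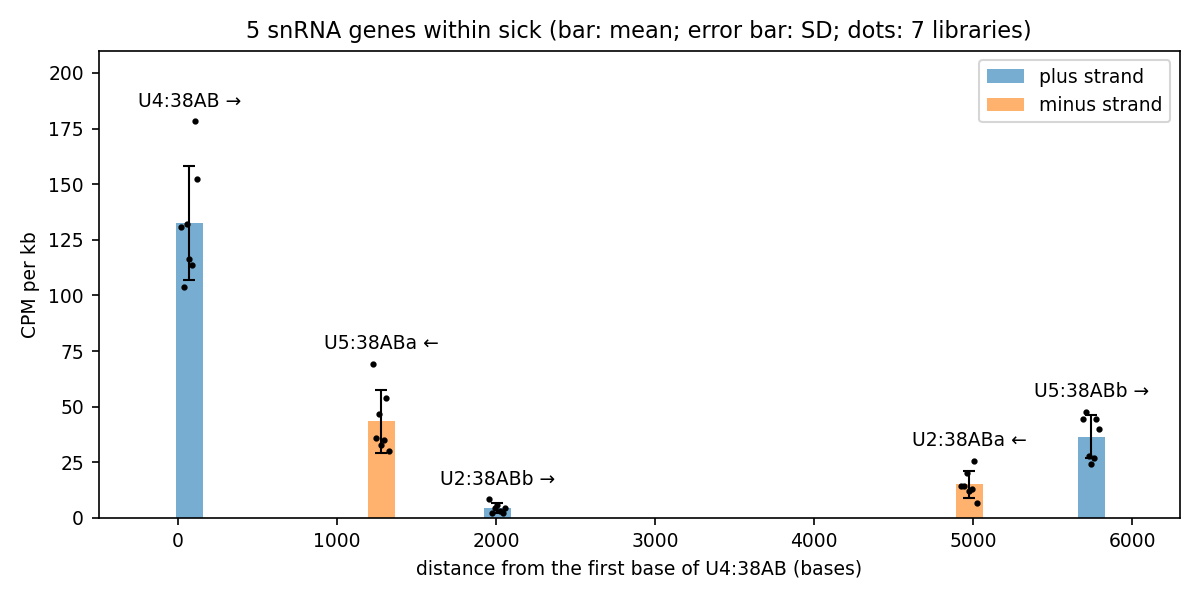
Level in CPM per kb of the 5 snRNA genes in the intron of sick, placed by distance in bases from the first base of U4:38AB; bars are means, error bars SD and dots the 7 libraries. U4:38AB (mean 132) lies above the 4 others, and U2:38ABb (mean 4.27) is lowest.

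Copies of U2 and U5 form 4 pairs of neighbours that are transcribed away from each other across 286 to 608 bases. In 3 of these the U5 copy had the higher level per kb in 7 of 7 libraries: U5:34A over U2:34ABc by 3.18 to 12.1 times, U5:38ABa over U2:38ABb by 5.57 to 23.0 times and U5:38ABb over U2:38ABa by 1.38 to 5.93 times. In the pair on the X chromosome, U5:14B (16254008 to 16254117) and U2:14B (16254672 to 16254863), U5 was higher in 2 of 7 libraries, with ratios from 0.20 to 1.39. U2:34ABa and U2:34ABb form another divergent pair, 3722 bases apart. Neither U5:63BC nor U2:34ABa, the leading copies of their classes, belongs to a divergent U2 and U5 pair. These pairs were noticed in the annotation after the levels had been seen, and their ratios are given without a test.

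Of the 29 members, 14 lie in an intron of a protein-coding gene, 10 on the strand of the host and 4 opposite to it. Reads of unspliced host RNA were not separated from those of the members. Levels ranged from 4.27 to 1640 CPM per kb with a median of 74.8 within introns and from 3.79 to 558 CPM per kb with a median of 42.8 outside, and 12 of 14 and 11 of 15 were detected. Among the hosts, U11 (chromosome 3L, 3893056 to 3893330) lies opposite to Fie, at 32.1 ± 4.46 CPM, and its own count exceeded that of the host. U12 lies opposite to Baldspot (96.1 ± 7.66 CPM). U4atac lies in the orientation of cno (880 ± 121 CPM), U4:39B in that of Atg18b (391 ± 66.04 CPM), and U1:95Cb and U1:95Cc, 1372 bases apart, in that of CG34355 (89.1 ± 9.95 CPM).

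Every one of the 23 detected members varied more between cultures than the median detected gene. The coefficient of variation had a median of 29.0% over the 23 and ranged from 14.7% for U11 to 55.3% for U5:14B, against a median of 14.1% over all 9476 detected genes. The variance over that of pure counting had a median of 27.3 for the members and 12.8 for all genes. The members had a median level of 13.7 CPM, below the 24.1 CPM of all detected genes, and the part of level in this spread was not tested.

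The summed level of U snRNAs rose and fell with that of the snoRNAs and scaRNAs, the guide RNAs that direct modification of ribosomal RNA and snRNAs. The 258 genes of this list, 89 of them detected, summed to 1240 CPM in CC_4 and 1990 CPM in CC_6, the libraries with the lowest and highest U snRNA sums. Pearson's r was 0.92 (exact permutation p = 0.00198, adjusted p = 0.0119 over 6 correlations) and Spearman's rho was 0.86 (p = 0.0238, adjusted p = 0.143, exact permutation), so the rank correlation did not pass the adjustment. Without CC_1 and CC_6, the libraries farthest from the median, r was 0.80. Leaving out single libraries gave r from 0.87 to 0.96, but adjusted p then reached 0.0167 to 0.142 and was above 0.05 without CC_1, CC_2, CC_4 or CC_6. Both sums are shares of the same libraries. Against 7SK, 7SL, RNase MRP and RNase P RNA, which summed to 12675 ± 1559 CPM, r was 0.75 (adjusted p = 0.106, exact permutation).

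**Figure D5:**
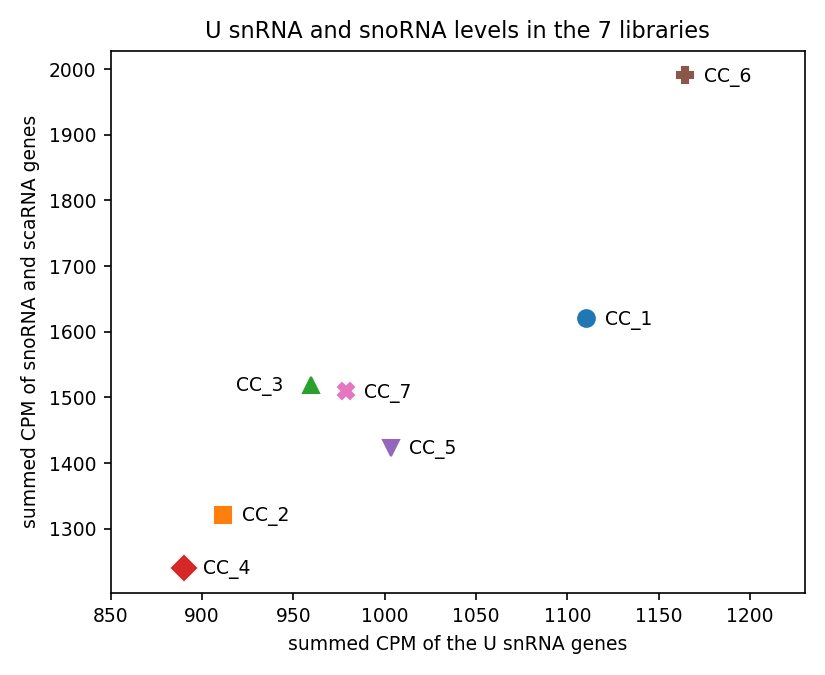
Summed CPM of the U snRNA genes (horizontal axis) against summed CPM of snoRNA and scaRNA genes (vertical axis), with 1 point per library; the axes do not start at 0. CC_4 is lowest on both axes and CC_6 highest.

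Other relations between classes did not pass the adjustment. Major and minor sums gave r = 0.45 (adjusted p = 0.368, exact permutation), and -0.12 without the 2 farthest libraries. U4 with U6 gave r = 0.81 (adjusted p = 0.0863, exact permutation), and 0.35 without CC_3 and CC_6. U4atac with U6atac gave r = -0.70 (adjusted p = 0.119, exact permutation), where U6atac rests on 1 to 32 counts.

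RNA of the proteins that act with these snRNAs was mostly present. Of 73 genes on 10 lists of snRNP proteins and of factors for snRNA synthesis and assembly, 68 were detected. Over all genes in the table the share was 53.4%. All 7 Sm proteins, which form the ring on the snRNAs made by RNA polymerase II, were detected, from SmB at 96.4 ± 5.39 CPM per kb to SmD3 at 18.2 ± 2.35 CPM per kb (SD, n = 7). For the Lsm ring of U6, 6 of 7 were detected, with CG9344 highest (55.9 ± 5.75 CPM per kb) and CG6610 lowest (9.95 ± 1.93 CPM per kb). The 3 genes of the U1 particle ranged from snf (39.9 ± 4.73 CPM per kb), a protein of both U1 and U2, to snRNP-U1-70K (12.1 ± 1.46 CPM per kb). Among 8 genes of the U2 particle, Sf3a2 was highest (62.2 ± 6.58 CPM per kb) and Sf3b2 lowest (8.10 ± 1.09 CPM per kb), both subunits of complexes that hold U2 on the branch point. For the U4/U6 and U5 particles, all 7 genes found were detected, from Brr2, the helicase that unwinds U4 from U6 (148 ± 14.5 CPM per kb), to CG4849 (11.2 ± 1.06 CPM per kb).

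Of 12 genes for snRNP assembly and transport, 11 were detected, with Smn, the core of the complex that loads Sm rings, at 27.5 ± 3.33 CPM per kb and Gem4b at 0.45 ± 0.21 CPM per kb. For transcription and 3′ processing, a list that holds the Integrator complex, 20 of 21 genes were detected, from Su(Tpl), the elongation factor Ell (57.0 ± 5.13 CPM per kb), to Pbp45, a subunit of the snRNA promoter-binding complex (1.16 ± 0.51 CPM per kb). All 3 U6 factors were detected, with La, which binds the 3′ end of new polymerase III transcripts, at 176 ± 12.5 CPM per kb and CG16790 at 2.77 ± 0.60 CPM per kb. The 3 genes listed with the minor spliceosome were detected too, from barc (20.01 ± 2.53 CPM per kb) to CG31922 (8.59 ± 1.94 CPM per kb). CG17768, Tgs1 and Pbp49 had 0 counts in every library. The annotation places exons of other genes over 100% of each of these 3, so their counts are uncertain. Between the lowest and the highest library, the summed level of these 10 lists differed by 1.11 times for the Sm ring to 1.32 times for the U7 list, and that of the U snRNAs by 1.31 times.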

How the data were processed

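RNA of 7 control cultures was analysed. The deposited table is named for featureCounts and holds whole-number counts per gene, to which the authors applied no normalization. The labels name the build dm6. Aligner, annotation, strand setting and treatment of reads with several matches: not given in the sources used here. A further 8 columns of per-sample values match no sample and were left out. Columns were matched to the condition, not to a numbered culture. P-values measure the spread between these samples, which may be technical.

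CPM were computed from library totals. Lengths, positions and names came from BDGP6.54 (Ensembl 115), where all 29 members were found. Copies were compared by exact sign-flip permutation of log2 ratios of (count + 0.5) per kb, in pairs with at least 1 copy at 10 or more counts in every library. Correlations used all 5040 pairings. P-values were adjusted by the Benjamini-Hochberg method at a threshold of 0.05. Scripts were tested on simulated data. Members, lists and tests were chosen with earlier results of these data known. Any member may be named, and of each protein list the highest and lowest detected gene. Alternatives were TMM (edgeR 4.0.16), DESeq2 1.42.0 size factors, reduced totals, other limits and pseudocounts, and omitted libraries. R 4.3.3, Python 3.11.15, numpy 2.4.6, pandas 2.3.3 and matplotlib 3.10.9 were used. A count of 10 equals 0.30 to 0.47 CPM.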

Additional observations from a re-analysis of the deposited data

Results flagged for a closer look

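In 3 of 35 values tested (29 genes, 5 class sums and the sum of all), 1 library lay far from the other 6, where chance flags about 1 in 20. U1:21D stood at 21.6 CPM in CC_3, against 10.5 to 14.4 CPM in the others, and U1:95Ca at 58.1 CPM in the same library, against 33.5 to 42.9 CPM. U2:34ABc stood at 3.62 CPM in CC_7, against 1.47 to 2.08 CPM.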

How the results depend on the processing

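The number of detected members fell from 23 to 15 with a minimum of 100 counts, was 29 with a minimum of 1 count or with 10 counts in at least 4 libraries, and stayed at 23 or 24 with single libraries left out. Totals without Arc1, mitochondrial and ribosomal RNA genes raised all sums, to 207 CPM for U1, 169 for U2, 86.7 for U4, 521 for U11 and 1158 for all members, because they are smaller by 11.5 to 15.0%. TMM and DESeq2 size factors moved no class sum by more than 1 SD. Between 36 and 38 pairs of copies differed under the alternatives tried, of 52 pairs where no minimum was set. The pairs gained by omitting a library were those whose only library of opposite order was omitted. Among pairs that did not differ, U5:14B over U5:35D turned to -0.18 without division by length and lay between -0.36 and 0.32 when 1 library was omitted, U5:14B over U5:23D between -0.25 and 0.15 and U5:23D over U5:35D between -0.14 and 0.34 (log2). The correlation of U11 with U12 fell to -0.033 under TMM and -0.032 under DESeq2 scaling, and omitting 1 library gave -0.23 to 0.71; the cause was not tested. That of U snRNAs with snoRNAs ranged from 0.87 to 0.96 and lost its call with 4 single libraries left out, and the cause was not tested. No paired analysis was possible because all 7 libraries are of 1 condition. Depth limits the U6 copies and U6atac, which had as few as 1 count per library.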
